A study of Mus musculus with 22 samples.

Results

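The 10 chemokine and TNF genes described here are Tnf, Ccl2, Ccl3, Ccl4, Ccl5, Ccl7, Cxcl1, Cxcl2, Cxcl12 and Cx3cl1, which are 10 of 21887 protein-coding genes in the gene table used. For each gene, open chromatin peaks were collected whose summit lay in the gene body or within 20 kb of it on GRCm38. The 22 libraries came from OMNI-ATAC-seq, in which a transposase cuts accessible DNA, of frozen tissue from 11 mice, with 1 hippocampus and 1 frontal cortex library per animal. All animals were wild-type C57BL/6J males, adult, treated to model Gulf War Illness. Every one of them, the saline group included, drank CORT (corticosterone, the stress glucocorticoid of rodents) for 7 days and got DFP (diisopropyl fluorophosphate, an inhibitor of acetylcholinesterase) by intraperitoneal injection on day 8. CORT was then given intermittently over 5 weeks. On the final day LPS, a bacterial endotoxin, was given and tissue taken 6, 12 or 24 h later (3 animals per time), or saline was given and tissue taken 6 h later (2 animals). There was no saline group at 12 or 24 h, where an effect of LPS and one of the time of collection cannot be told apart. A further saline animal had been dropped by the submitters because too few reads were obtained, per the design text. No animals without CORT and DFP were analysed here. The libraries held 228324 to 307186 distinct peaks in hippocampus and 204599 to 280936 in frontal cortex, and their read depth is unknown from peak lists.

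TNF and chemokines are secreted or membrane-bound messengers of inflammation. TNF is made early by activated microglia and macrophages and acts through TNF receptors on NF-kB. Chemokines bind G-protein-coupled receptors on leukocytes and glia and steer their movement, and many of their genes are switched on by NF-kB after endotoxin. Cxcl12 and Cx3cl1 differ from the rest in that the healthy brain makes them constantly, Cx3cl1 mainly in neurons.

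The 10 genes lie in 7 separate loci, since neighbouring genes share peaks. Ccl2 (chr11:82035577-82037452) and Ccl7 (chr11:82045712-82047525) overlap in their 20 kb flanks, as do Cxcl1 (chr5:90891245-90893121) and Cxcl2 (chr5:90903899-90905938). Ccl3 (chr11:83647843-83649378) lies partly within the RefSeq span of Ccl4 (chr11:83648624-83664683). The other genes are Ccl5 (chr11:83525778-83530518), Tnf (chr17:35199367-35202007), Cxcl12 (chr6:117168535-117181368) and Cx3cl1 (chr8:94772180-94782427). The flanks of Tnf also hold Lta, Ltb, Lst1 and Nfkbil1, those of Ccl5 hold Heatr9 and Taf15, and those of Ccl7 hold Ccl11, so a peak there cannot be assigned to the chemokine or TNF gene alone.

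RefSeq promoter entries of GRCm38.p6 were matched for 6 of the 10 genes, by symbol. The 250 bases before the transcript start are shown for 5 of them, because these promoters span the whole range of openness described below, with a peak in all 22 libraries at Cx3cl1 and in none at Cxcl2. They are Tnf (chr17:35202008-35202257, minus strand), Ccl3 (chr11:83649379-83649628, minus strand), Cxcl1 (chr5:90890995-90891244, plus strand), Cxcl2 (chr5:90903649-90903898, plus strand) and Cx3cl1 (chr8:94771930-94772179, plus strand). Each reads 5′ to 3′ towards the gene. Capitals mark matches to the NF-kB consensus, to the TATA box (TATAAA) or to the GC box (GGGCGG), searched on both strands.
Tnf: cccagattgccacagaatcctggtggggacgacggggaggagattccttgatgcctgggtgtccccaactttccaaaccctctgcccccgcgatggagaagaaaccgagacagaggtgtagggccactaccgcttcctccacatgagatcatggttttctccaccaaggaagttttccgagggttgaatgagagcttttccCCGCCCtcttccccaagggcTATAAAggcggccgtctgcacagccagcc
Ccl3: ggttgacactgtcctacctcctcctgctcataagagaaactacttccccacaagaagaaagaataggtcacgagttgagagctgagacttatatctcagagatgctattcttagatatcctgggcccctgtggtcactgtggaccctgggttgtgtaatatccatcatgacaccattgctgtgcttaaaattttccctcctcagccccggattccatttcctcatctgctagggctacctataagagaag
Cxcl1: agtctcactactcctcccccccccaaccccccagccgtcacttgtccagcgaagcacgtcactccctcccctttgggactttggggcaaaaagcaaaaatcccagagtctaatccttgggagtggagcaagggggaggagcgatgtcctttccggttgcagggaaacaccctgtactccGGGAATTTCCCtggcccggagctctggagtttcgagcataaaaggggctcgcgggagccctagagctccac
Cxcl2: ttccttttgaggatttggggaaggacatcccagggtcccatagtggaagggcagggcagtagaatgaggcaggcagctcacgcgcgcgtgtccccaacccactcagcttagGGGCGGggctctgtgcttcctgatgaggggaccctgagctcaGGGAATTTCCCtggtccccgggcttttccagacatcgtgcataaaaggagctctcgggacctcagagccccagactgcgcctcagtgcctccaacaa
Cx3cl1: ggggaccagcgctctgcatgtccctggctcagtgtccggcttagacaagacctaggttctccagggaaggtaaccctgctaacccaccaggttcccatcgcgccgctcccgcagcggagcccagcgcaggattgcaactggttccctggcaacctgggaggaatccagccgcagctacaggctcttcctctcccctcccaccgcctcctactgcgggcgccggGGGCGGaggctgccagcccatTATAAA

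The promoters of Cxcl1 and Cxcl2, both ligands of the neutrophil receptor CXCR2, carried the NF-kB consensus as the same letters. At Cxcl1 the match lay 71 to 62 bases before the start, and at Cxcl2 97 to 88 bases before it, each overlapped by a second match 1 base further on the other strand. Of 17492 promoters of this length, 7.57% held this motif. TATA boxes were found at Tnf (bases -29 to -24) and at Cx3cl1 (bases -6 to -1), and 12.4% of promoters held one. GC boxes were found at Tnf, Cxcl2, Cxcl12 and Cx3cl1, against 42.7% of all promoters, and Cxcl12 held 5 of them, of which 2 overlapped by 1 base. AP-1 (TGANTCA, in 6.22% of promoters), C/EBP (TTGC, any 2 bases, then AA; 9.11%), the glucocorticoid response element (0.36%) and the interferon-stimulated response element (3.02%) had no match in these 6 windows. Ccl3 held none of the motifs searched.

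A peak over the promoter, taken as 250 bases before to 50 after the start with any overlap, was found in every library only at Cx3cl1 among these 6 genes. Cx3cl1 encodes fractalkine, the neuronal ligand of the microglial receptor CX3CR1. Its promoter peak was 3.75 to 5.19 times the local background by the authors' peak caller and ranked in the top 6.73% to 15.5% of each library's peaks. At Cxcl12, the CXCR4 ligand, the promoter peak was present in 11 of 11 hippocampus and 9 of 11 cortex libraries, and its fold over background was 1.89 to 4.20. At Tnf it was present in 9 hippocampus and 10 cortex libraries, at Cxcl1 in 10 and 8, and at Ccl3 in 7 and 9. Cxcl2 had no promoter peak in any of 22 libraries and none with a summit inside the gene. Over all 17492 promoters, 56% had a peak in all 22 libraries and 32.2% in none.

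**Figure D1:**
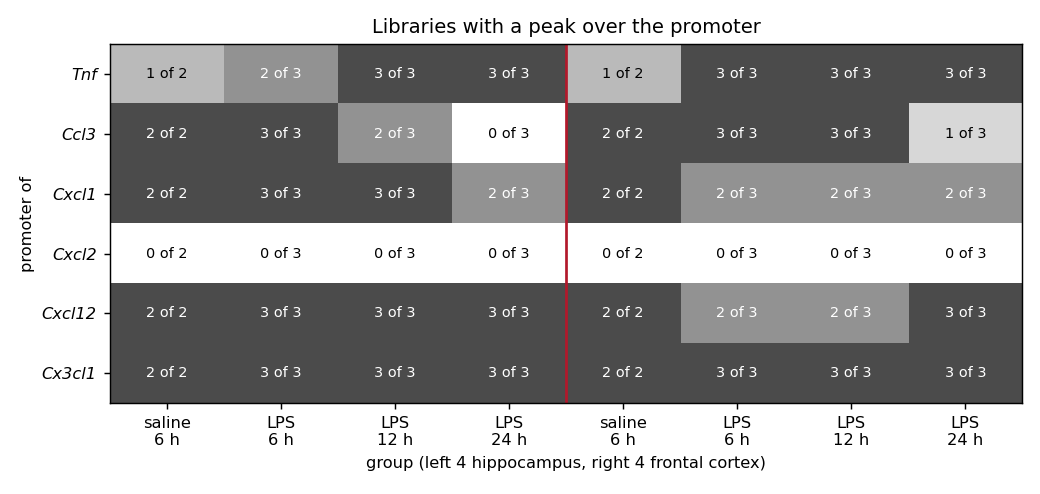
Number of libraries with a peak over the promoter of the 6 genes with a promoter entry (rows), in each group (columns; hippocampus left, frontal cortex right, saline then LPS by time). Darker cells hold a larger share of the group's libraries. Cx3cl1 had the peak in all 22 libraries and Cxcl2 in none, and at Ccl3 it was seen in 0 of 3 hippocampus and 1 of 3 cortex libraries at 24 h.

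The gene bodies of Tnf, Ccl2, Ccl5, Ccl7, Cxcl12 and Cx3cl1 were overlapped by a peak in all 22 libraries, wherever its summit lay. The strongest constant site of all 7 loci was at Ccl2, which encodes the monocyte attractant acting on CCR2. It was a window at chr11:82035298-82035798 that overlaps one end of the gene. Its peaks were 8.24 to 13.1 times background over the 22 libraries, with a median rank in the top 4.0% of a library's peaks. Other sites open in all libraries were weaker in rank. The best of Cx3cl1 was chr8:94801696-94802196, 19519 bp past the gene (4.58 to 7.81 times background, median rank top 8.25%). The best of Cxcl12 lay 1545 bp upstream of the gene (6.83 to 9.78 times background, median rank top 8.69%), and that of Tnf lay 3530 bp downstream, inside Ltb (5.16 to 9.55 times, top 13%). The Ccl3 and Ccl4 locus had no window in all 22 libraries. Of its 2 windows found in 21 libraries, the higher ranked one was chr11:83634330-83634830, at a median rank of 51.4%.

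Hippocampus and frontal cortex differed in the number of peaks at all 10 genes. Ccl2, Ccl5, Ccl7, Cxcl1 and Cxcl2 had more peaks in hippocampus, and Tnf, Ccl3, Ccl4, Cxcl12 and Cx3cl1 had fewer. The largest difference was at Cxcl1, with a median of 7 peaks in hippocampus and 3 in cortex. These are bulk tissues, so fewer nuclei with an open site and less openness per nucleus cannot be told apart. Peak numbers per library were scaled to equal totals and tested as log2(scaled number + 1) with limma across 19786 genes, with Benjamini-Hochberg adjusted p under 0.05 as the threshold. Of all genes tested 44.2% passed it, 17.2% higher and 27% lower in hippocampus, so 10 called genes among 10 stand against a background in which tissue differences were common.

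The CXCR2 ligands came first by size. Cxcl1 had 5 to 9 peaks (median 7) in the 11 hippocampus libraries, against 2 to 5 (median 3) in the 11 cortex libraries. All 11 animals had more in hippocampus, while the ranges met at 5 peaks. The log2 difference, hippocampus minus cortex, was 0.81 (SE 0.092, limma adjusted p = 2.56e-07). Within 5 kb of Cxcl1 it was 0.27 and the call was lost (limma adjusted p = 0.297). Cxcl2 had 3 to 7 peaks (median 4) in hippocampus, against 1 to 3 (median 2) in cortex. The ranges met at 3 peaks. It was higher in hippocampus in 10 animals and equal in 1, and the log2 difference was 0.74 (SE 0.118, limma adjusted p = 2.40e-05). Both genes draw in part on the same peaks, so these 2 values are not independent.

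Among the CC chemokines, the monocyte attractants Ccl2 and Ccl7 were also higher in hippocampus. Ccl7, another CCR2 ligand, had 9 to 13 peaks (median 10) in hippocampus, against 4 to 9 (median 7) in cortex. Every animal had more in hippocampus, and the ranges met at 9 (log2 difference 0.50, SE 0.075, limma adjusted p = 1.11e-05). Ccl2 had 6 to 10 peaks (median 8) in hippocampus, against 3 to 7 (median 5) in cortex. The ranges shared 6 and 7 peaks, and hippocampus was higher in 10 of 11 animals (log2 difference 0.36, SE 0.089, limma adjusted p = 0.0022).

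Ccl5, an attractant of T cells and monocytes, and the pair Ccl3 and Ccl4, the macrophage inflammatory proteins, went in opposite directions. Ccl5 had 8 to 12 peaks (median 10) in hippocampus, against 4 to 8 (median 6) in cortex, with the ranges meeting at 8. Hippocampus was higher in all 11 animals by peak number, and in 10 after scaling, with cortex higher in 1. Its log2 difference was 0.53 (SE 0.104, limma adjusted p = 0.000239). This came from the flanks, since within 5 kb of the gene the sign turned to -0.19 (limma adjusted p = 0.0693). Ccl3 had 1 to 4 peaks (median 3) in hippocampus, against 2 to 7 (median 5) in cortex. Cortex was higher in 9 animals and equal in 2, and the ranges overlapped from 2 to 4 peaks (log2 difference -0.62, SE 0.130, limma adjusted p = 0.000491). The Ccl3 call was lost when only peaks with a −log10 q from 5 upwards were used (limma adjusted p = 0.245), within 5 kb (0.157) and within 50 kb (0.270). Ccl4 had 3 to 7 peaks (median 5) in hippocampus, against 4 to 9 (median 7) in cortex, with the ranges overlapping between 4 and 7. Cortex was higher in 9 animals (log2 difference -0.42, SE 0.086, limma adjusted p = 0.000408). Within 50 kb the Ccl4 call was lost (limma adjusted p = 0.0777).

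The 2 constitutive chemokines both had fewer peaks in hippocampus. Cx3cl1 had 8 to 12 peaks (median 10) in hippocampus, against 11 to 16 (median 13) in cortex. Cortex was higher in 8 animals and equal in 3, and the ranges shared 11 and 12 peaks (log2 difference -0.49, SE 0.073, limma adjusted p = 1.07e-05). Cxcl12 had 5 to 9 peaks (median 7) in hippocampus, against 5 to 12 (median 9) in cortex. Cortex was higher in 8 animals, and the hippocampus range lay wholly inside that of cortex (log2 difference -0.39, SE 0.103, limma adjusted p = 0.00357). Cxcl12 was no longer called without scaling to equal totals (limma adjusted p = 0.0669), or when summits were counted in place of peaks (-0.25, limma adjusted p = 0.0788).

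Tnf was the least secure of the 10. It had 8 to 13 peaks (median 12) in hippocampus, against 8 to 14 (median 12) in cortex, so the ranges overlapped almost fully. Cortex was higher in 6 animals by peak number and in 10 after scaling (log2 difference -0.23, SE 0.081, limma adjusted p = 0.0232). Leaving out either saline animal, or replicate 4 of LPS at 6, 12 or 24 h, each ended the call (limma adjusted p between 0.0518 and 0.0692), while the difference stayed between -0.18 and -0.23. Counting summits gave -0.19 and no call (limma adjusted p = 0.0554). Without scaling the difference was -0.12 (adjusted p = 0.444), and within 5 kb it turned to 0.09 (adjusted p = 0.469).

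**Figure D2:**
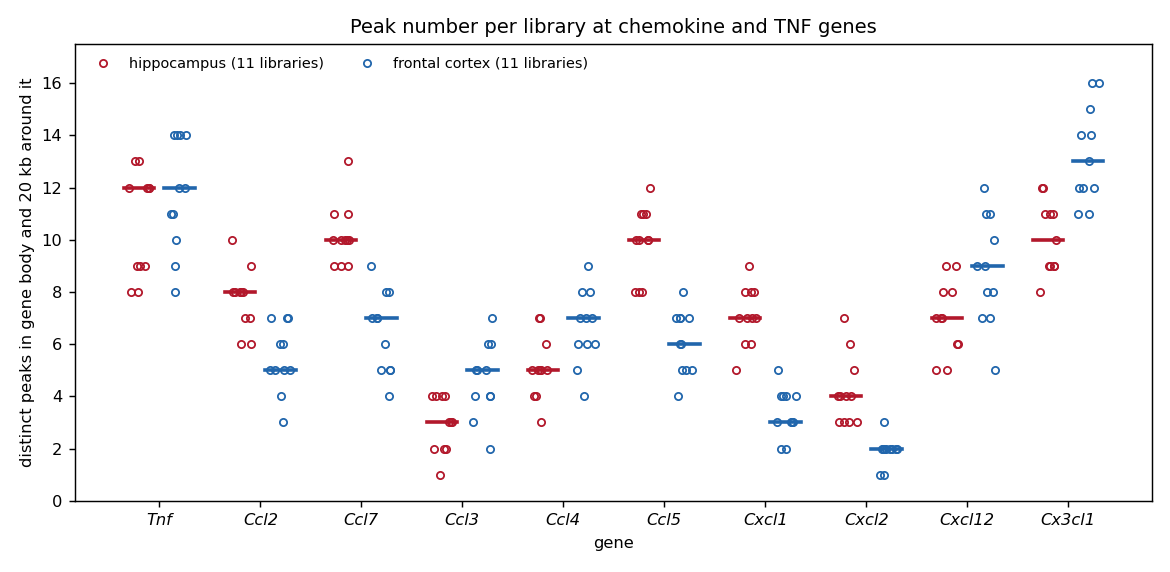
Number of distinct peaks in the gene body and 20 kb around it (vertical axis) for each gene, in hippocampus (red, left) and frontal cortex (blue, right). Each circle is 1 library and the bar is the median of 11. Cxcl1 had a median of 7 in hippocampus and 3 in cortex, while at Tnf both medians were 12.

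**Figure D3:**
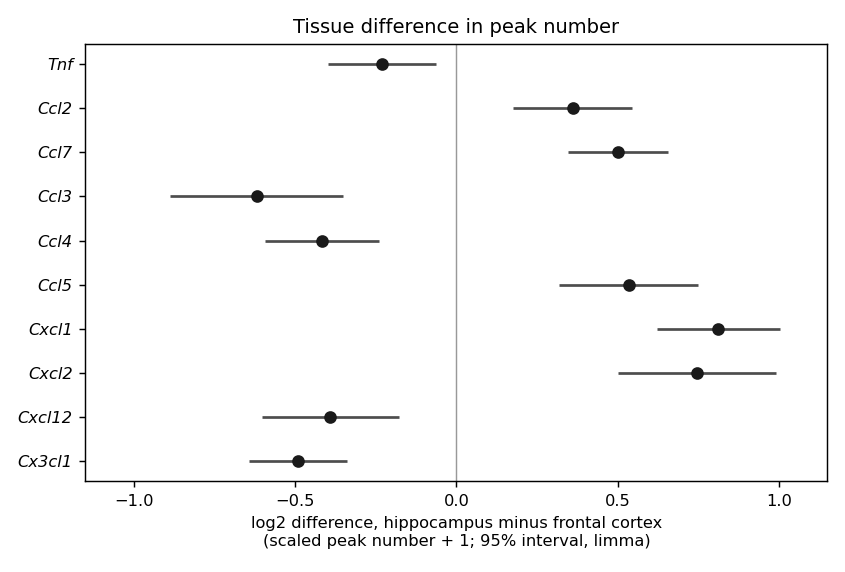
Log2 difference in scaled peak number + 1, hippocampus minus frontal cortex, for each gene (points), with the 95% interval from limma (lines). Positive values mean more peaks in hippocampus. Cxcl1 lay highest at 0.81 and Ccl3 lowest at -0.62, and no interval reached 0.

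By peak number before scaling, none of the 10 genes had tissue ranges that did not overlap at all, which 2.86% of all genes had. After scaling, the ranges of Cxcl1, Cxcl2 and Ccl7 no longer overlapped. For Cxcl1 the scaled ranges were 5.16 to 8.14 in hippocampus and 2.32 to 4.73 in cortex. The share of all genes without overlap after scaling was not computed. The median log2 difference was 0.06 over the 10 genes and -0.06 over all genes tested. Without scaling to equal totals the median of all genes was 0.05, and the split over all genes went to 4695 higher and 2185 lower in hippocampus, against 3400 and 5346 with scaling. The sign of the difference was the same in all 10 genes without scaling, and 8 of them were called. With the 50000 strongest peaks of each library, 8 of the 10 genes could be tested and only Ccl5 was called.

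The sites behind these numbers were followed as fixed windows that reach 250 bp to either side of a summit. The 7 loci held 114 windows, of which 19 had a peak in all 22 libraries and 18 in 1 library. Of 72 windows present in 2 to 20 libraries, 17 differed (Fisher's exact test between tissues, adjusted p under 0.05), which is 23.6%, against 30.5% of all windows. Of these 17, 11 were more often open in hippocampus and 6 in cortex. With the animal as a block, in a sign test over the 11 animals, 12 of the 17 were still called and none was added, against 20.9% of all windows called by that test. As shares of the 72, the 11 and 6 were 15.3% and 8.3%, against 18.3% and 12.2% of all windows tested. None of the 17 covered one of the 6 promoters, and 14 lay outside the gene bodies. Of the 72, 4 had a peak in every library of 1 tissue and in no library of the other (5.56%, against 6.56% of all windows).

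At Cxcl1 the distal sites were those that differed. The window at chr5:90880692-90881192, 10303 bp upstream, had a peak in 11 of 11 hippocampus and 0 of 11 cortex libraries (Fisher's exact test, adjusted p = 4.32e-05). Its hippocampus peaks were 3.24 to 6.56 times background. A window 14562 bp upstream was open in 11 hippocampus and 4 cortex libraries (adjusted p = 0.0156), a call lost with the block (sign test, adjusted p = 0.0601). One 6199 bp upstream was open in 9 and 1 (Fisher's exact test, adjusted p = 0.00904). By contrast the window 9340 bp upstream was open in all 22, less than 1 kb from the hippocampal site. Between Cxcl1 and Cxcl2, 3516 bp upstream of Cxcl2, a further window was open in 7 hippocampus and 0 cortex libraries (adjusted p = 0.0156), again not called with the block (0.0601).

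The Ccl5 locus held a pair of sites open in every hippocampus library and no cortex library. They were chr11:83537012-83537512, 6744 bp from the gene body within the predicted gene Gm32650, and chr11:83549117-83549617, 18849 bp from it (both adjusted p = 4.32e-05). Their peaks were 4.22 to 7.14 and 4.62 to 7.92 times background. A further window in Gm32650, 5210 bp from Ccl5, was open in 9 hippocampus and 0 cortex libraries (adjusted p = 0.00145). The site inside Ccl5 at chr11:83528961-83529461 was open in all 22 libraries, with a median of 4.61 times background in hippocampus and 6.63 in cortex, values that each library's own background sets.

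Around Ccl2 and Ccl7, chr11:82049321-82049821 was open in 11 hippocampus libraries and 1 cortex library (Fisher's exact test, adjusted p = 0.000297). It lies 2046 bp from Ccl7. A window inside Ccl11, the eosinophil attractant eotaxin, at chr11:82062199-82062699, had the same counts. Its peaks were 5.08 to 9.40 times background in hippocampus and 2.72 times in the 1 cortex library.

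The opposite pattern was found in the Ccl3 and Ccl4 locus. The window at chr11:83657407-83657907, 8279 bp upstream of Ccl3 and inside the Ccl4 span, had a peak in 0 hippocampus and 11 cortex libraries (adjusted p = 4.32e-05), at 2.53 to 7.89 times background. A site 6679 bp from Ccl4, inside the predicted gene Gm51868, was open in 6 hippocampus and 0 cortex libraries (adjusted p = 0.0406; 0.0988 with the animal as a block). Inside Cxcl12, 2 windows 10042 and 11684 bp after the start were open in no hippocampus library and in 9 and 10 cortex libraries (adjusted p = 0.00145 and 0.000297). A window 14615 bp upstream of Cxcl12 was open in 0 and 7 (adjusted p = 0.0156; 0.0601 with the block). Beside Cx3cl1, chr8:94794748-94795248, 12571 bp past the gene, was open in 2 hippocampus and 11 cortex libraries (adjusted p = 0.00145).

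At Tnf the 2 called sites had opposite signs. The window 1824 bp upstream, inside Lta (lymphotoxin alpha, a TNF relative), was open in 10 hippocampus libraries and 1 cortex library (adjusted p = 0.00215). The window 8328 bp upstream was open in 3 hippocampus and 10 cortex libraries (adjusted p = 0.0289), and was not called with the animal as a block (sign test, adjusted p = 0.0601).

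**Figure D4:**
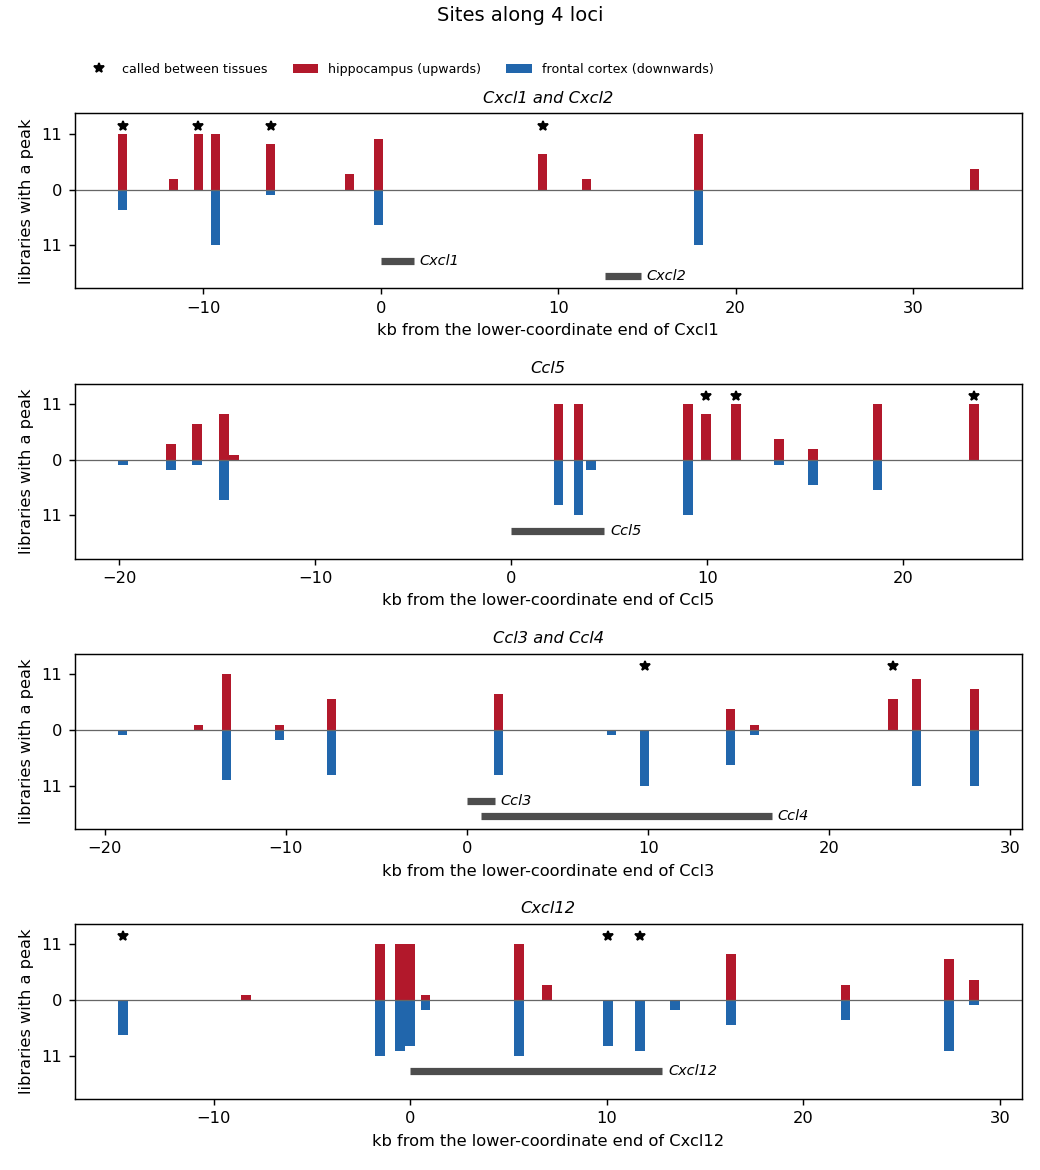
Number of libraries with a peak (0 to 11 per tissue) in each window along 4 loci, hippocampus upwards and frontal cortex downwards, by distance in kb from the lower-coordinate end of the first gene named. Grey bars are gene bodies and stars are windows with adjusted p under 0.05 by Fisher's exact test. Sites open in 11 libraries of 1 tissue and 0 of the other stand near Cxcl1, Ccl5 and Ccl3, outside the promoters with a RefSeq entry. Ccl4 and Ccl5 had no such entry.

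No difference in peak number between LPS and saline passed the threshold at any of the 10 genes. Over 6 comparisons with saline (3 times in 2 tissues), 0 of 60 values had a limma adjusted p under 0.05, and 2 had an unadjusted p under 0.05. Among all genes the share called was 0% at 6 and 12 h and 0.0101% at 24 h in hippocampus, and 0.0202%, 0% and 0.106% at 6, 12 and 24 h in cortex. Each group has 3 libraries against 2, and all comparisons within a tissue share the same 2 saline libraries, so these values do not show that LPS and saline tissue were alike.

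Both values with an unadjusted p under 0.05 were in cortex. Ccl7 had 7, 4 and 5 peaks at 6 h after LPS, against 8 and 7 after saline. The saline libraries were at the upper end, and the groups met at 7 by peak number but did not overlap after scaling (log2 difference -0.40, 95% interval -0.72 to -0.07, limma adjusted p = 0.763). Cx3cl1 had 14, 11 and 14 peaks at 24 h after LPS, against 16 and 15 after saline. These groups did not overlap by peak number or after scaling (log2 difference -0.36, 95% interval -0.68 to -0.04, limma adjusted p = 0.360). The share of all genes whose LPS and saline libraries did not overlap was not computed. With so few libraries per group, a lack of overlap, here and below, is description only. In hippocampus Cx3cl1 had 10, 11 and 9 peaks at 24 h, against 12 and 9 after saline, a log2 difference of 0.04 (-0.28 to 0.36).

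Tnf had 13, 12 and 8 peaks at 6 h, 12, 13 and 8 at 12 h and 12, 9 and 9 at 24 h in hippocampus, against 12 and 9 after saline. In cortex it had 14, 10 and 14 peaks at 6 h, 8, 12 and 11 at 12 h and 14, 11 and 14 at 24 h, against 12 and 9. The LPS and saline peak numbers overlapped at every time in both tissues. The widest difference was 0.31 in cortex at 6 h (95% interval -0.04 to 0.66), where the scaled values, 12.3 to 14.5 after LPS and 10.3 to 11.4 after saline, did not overlap. Ccl3 had 4, 4 and 3 peaks at 6 h, 3, 2 and 4 at 12 h and 3, 1 and 2 at 24 h in hippocampus, against 4 and 2 after saline. In cortex Ccl3 had 7, 4 and 6 peaks at 6 h, 5, 5 and 6 at 12 h and 5, 2 and 3 at 24 h, against 4 and 4. The LPS minus saline difference at Ccl3 was 0.38, 0.07 and -0.34 at 6, 12 and 24 h in hippocampus and 0.44, 0.39 and -0.37 in cortex, none past the threshold. The intervals at 6 h reached 0.95 in hippocampus and 1.01 in cortex.

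Values after LPS were as follows for Cxcl1 in both tissues, and for Ccl2, Ccl5 and Cxcl12 in hippocampus. Cxcl1 had 7, 8 and 7 peaks at 6 h, 6, 7 and 8 at 12 h and 9, 6 and 5 at 24 h in hippocampus, against 8 and 7 after saline, and in cortex 3, 2 and 3, then 2, 3 and 4, then 5, 4 and 4, against 4 and 3. LPS and saline libraries of Cxcl1 overlapped or met at each time in both tissues by peak number, and after scaling they did so except in cortex at 6 h, where LPS was lower. Ccl2 had 8, 9 and 7 peaks at 6 h, 7, 8 and 8 at 12 h and 8, 6 and 6 at 24 h in hippocampus, against 10 and 8 after saline. All of these LPS values but 1 lay at or below the lower saline library, and after scaling LPS lay below saline at 12 and 24 h without overlap. Ccl5 had 10, 8 and 8 peaks at 6 h, 12, 10 and 10 at 12 h and 11, 8 and 10 at 24 h in hippocampus, against 11 and 11 after saline. At 6 h its LPS libraries were all below saline by peak number, while the scaled values overlapped (7.66 to 9.75 after LPS, 9.03 to 11.1 after saline), with a log2 difference of -0.18 (95% interval -0.63 to 0.27). Cxcl12 had 5, 5 and 6 peaks at 6 h, 7, 8 and 9 at 12 h and 7, 9 and 7 at 24 h in hippocampus, against 8 and 6 after saline, and the groups met or overlapped at each time by peak number. After scaling, LPS lay above saline at 12 h (7.08 to 8.56, against 6.03 to 6.57). Further scaled values without overlap went both ways. Ccl7 was lower after LPS at 6, 12 and 24 h in hippocampus and at 12 h in cortex. Ccl4 was higher at 6 h in both tissues and at 12 h in cortex, and lower at 12 and 24 h in hippocampus. Ccl3 was higher at 6 h in both tissues and at 12 h in cortex. Cxcl2 was lower at 6 h in hippocampus, and Cx3cl1 at 12 h in cortex. None passed the limma threshold.

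**Figure D5:**
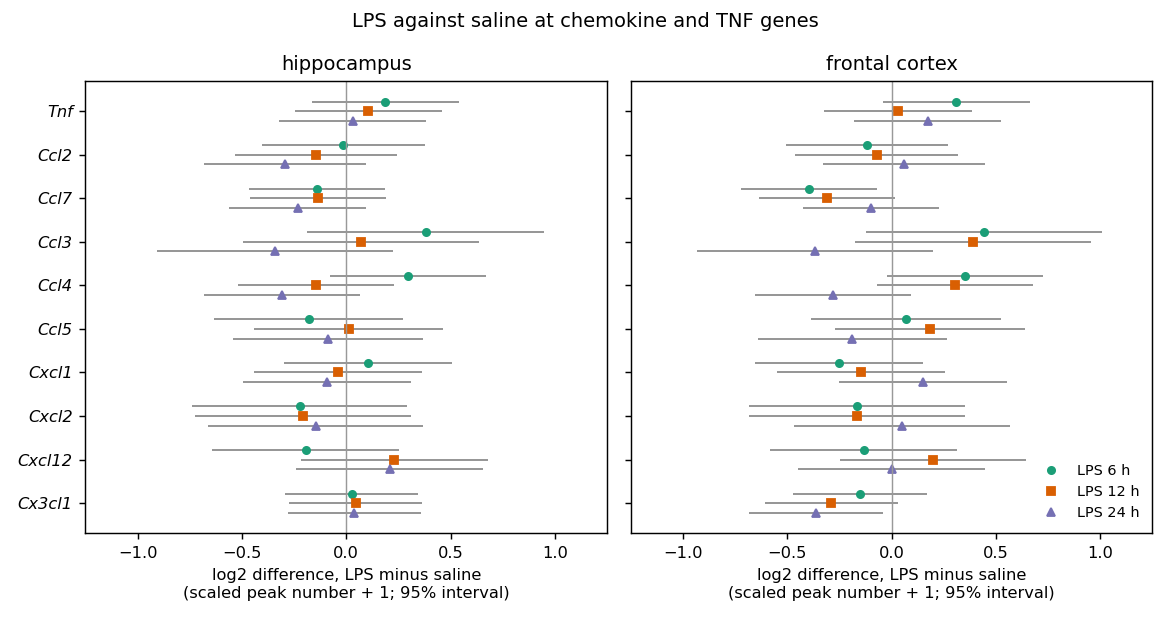
Log2 difference in scaled peak number + 1, LPS minus saline, at 6 h (circles), 12 h (squares) and 24 h (triangles) for each gene in hippocampus (left) and frontal cortex (right), with 95% intervals from limma. All intervals cross 0 except those of Ccl7 at 6 h and Cx3cl1 at 24 h in cortex.

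Whether LPS acted differently in the tissues was tested as an interaction. For the 10 genes at 3 times, 0 of 30 interactions had a limma adjusted p under 0.05, and 0 had an unadjusted p under 0.05, against 0% called among all genes at each time. The interaction closest to the threshold was Cx3cl1 at 24 h, where hippocampus minus cortex was 0.40 (-0.05 to 0.85, limma adjusted p = 0.854).

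Single sites were also compared with LPS. A window was counted as gained where all 3 LPS libraries and neither saline library had a peak, and as lost in the converse case. No test was run, since Fisher's exact test of presence in 3 libraries against 2 cannot pass the threshold. In hippocampus 1 window of 85 was gained and 2 lost at 6 h (0.517% and 1.51% of all windows), 1 gained and 1 lost of 89 at 12 h (1.29% and 1.39%), and 0 gained and 4 lost of 86 at 24 h (1.12% and 1.61%). In cortex 1 of 82 was gained and 1 lost at 6 h (0.66% and 1.17%), 2 of 79 gained and 1 lost at 12 h (0.941% and 1.23%), and 3 of 78 gained and 1 lost at 24 h (3.03% and 0.827%). With so few windows, a single one moves these shares by over 1%.

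A Tnf window at chr17:35218498-35218998, 16741 bp upstream, was the one gained at all 3 times in cortex. It had a peak in 9 of 9 LPS and 0 of 2 saline libraries of cortex. In hippocampus it was open in all 11 libraries, the saline ones included. Its cortex peaks were weak to moderate, at 2.09 to 4.05 times background. In hippocampus another Tnf window, at chr17:35190060-35190560, was gained at 6 and 12 h and had a peak in 2 of 3 libraries at 24 h and 0 of 2 after saline. Its cortex counts were 3, 2 and 3 of 3 at 6, 12 and 24 h, against 1 of 2 after saline. At a −log10 q of 5 or more, hippocampus gains over these loci numbered 1 at 6 h and 0 at 12 h.

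The promoter peak of Ccl3 was among the lost windows in hippocampus at 24 h. It was singled out after its values were seen, so no test is given. With both tissues counted, it was present in 6 of 6 libraries at 6 h, 5 of 6 at 12 h and 1 of 6 at 24 h after LPS, and in 4 of 4 after saline. The 1 library at 24 h was the cortex of replicate 1, at 3.68 times background. Some of the other Ccl3 promoter peaks were weak. Their −log10 q was 1.14 in hippocampus replicate 4 at 6 h and 1.65 in replicate 3 at 12 h. After saline it was 23.6 and 3.45 in hippocampus and 12.4 and 8.78 in cortex. Counting only peaks with a −log10 q of 5 or more, saline replicate 3 of hippocampus drops out. The window then no longer meets the definition of lost. The Tnf promoter peak was present in 5 of 6, 6 of 6 and 6 of 6 LPS libraries at 6, 12 and 24 h, and in 2 of 4 saline libraries. Both saline libraries without it came from replicate 3. Lost windows also included one inside Tnf (chr17:35200399-35200899) in hippocampus at 24 h, and one inside Cxcl12 (chr6:117175236-117175736) in hippocampus at 6 and 24 h. A window 1790 bp upstream of Cxcl1 was lost in hippocampus at 6 and 12 h, and one 918 bp upstream of Cx3cl1 in cortex at 6 h.

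The authors' deposited table of regions that differed from saline, made with csaw within each tissue, held 1 region in the 7 loci. In the authors' deposited table this was chr17:35215201-35215310, 13194 bp upstream of Tnf, higher at 24 h in cortex with an FDR of 0.0141. At this time in cortex, 12.7% of all gene loci held a region of the authors' deposited table, against 1.39% and 0.178% at 6 and 12 h. In hippocampus 0.0685%, 8.87% and 0.571% of loci held a region of the authors' deposited table at 6, 12 and 24 h. By the peak lists, this region had a peak in 3 of 3 cortex libraries at 24 h (3.58, 3.60 and 2.80 times background), in 0 of 3 at 12 h, in 2 of 3 at 6 h and in 1 of 2 after saline (2.53 times). In hippocampus 3 of 11 libraries had a peak there. Within 50 kb, the authors' deposited table added 2 regions near Ccl2 and Ccl7, chr11:82078201-82078310 (FDR 0.0323) and chr11:82088101-82088160 (FDR 0.0251), both higher at 24 h in cortex.

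Other genes of the pathway were taken from a list of 56 further chemokines, TNF relatives, receptors and signalling genes, of which 54 could be tested. Between tissues, 7 were higher and 12 lower in hippocampus by limma, with a median log2 difference of -0.07, against -0.06 over all genes tested. Ccl11, which shares peaks with Ccl7, had 7 to 11 peaks (median 10) in hippocampus, against 3 to 8 (median 6) in cortex (log2 difference 0.62, limma adjusted p = 2.20e-05). Ccl22, a ligand of CCR4, had 2 to 6 peaks (median 4) in hippocampus, against 4 to 10 (median 6) in cortex (-0.80, limma adjusted p = 1.43e-05). Ccl20, the CCR6 ligand, had 2 to 3 peaks (median 2) in hippocampus, against 3 to 4 (median 3) in cortex (-0.51, limma adjusted p = 3.82e-05). Between LPS and saline, 0 of the 54 had a limma adjusted p under 0.05 in any of the 6 comparisons, and 2 to 7 had an unadjusted p under 0.05 in each.

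The authors' deposited table held regions in the loci of 15 of these pathway genes. At 24 h in cortex its regions were all higher, in the loci of Lta, Ltb, Ccl8, Ccl11, Ccl12, Cxcl13, Xcl1, Ccr1, Ccr3 and Ccr6. The share of higher regions among all regions of the authors' deposited table at that time was not computed. The lowest FDR in the authors' deposited table was at Cxcl13, the B cell attractant, with 2.35e-09 for a region 13729 bp from the gene. For hippocampus at 12 h the authors' deposited table gave lower regions near Ccrl2, Cxcr1, Ackr3 and Ackr4 and a higher one near Cxcl13, and for cortex at 6 h a higher one at Xcr1. Of the 55 pathway genes in the gene table, regions of the authors' deposited table thus lay at 10 for cortex at 24 h (18.2%, against 12.7% of all loci). They lay at 5 for hippocampus at 12 h (9.09%, against 8.87%) and at 1 for cortex at 6 h (1.82%, against 1.39%) in the authors' deposited table, shares near those of all loci. The Lta and Ltb region is the one described at Tnf, and those of Ccl11 and Ccl12 include the 2 near Ccl2 and Ccl7. Ccl8 and Ccl12 share the region chr11:82101551-82101860, so these loci are not separate regions.

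Markers were counted in the same way to check the tissues. Summed scaled peak numbers of 6 hippocampal genes were 184 to 238 (median 206) in hippocampus and 110 to 134 (median 125) in cortex, with no overlap, and those of 6 cortical genes were 114 to 134 (median 127) and 194 to 214 (median 203). By limma, 4 of the 6 hippocampal genes were higher and 0 lower in hippocampus, among them Zbtb20 and Lhx9, and 0 of the 6 cortical genes were higher and 5 lower, among them Rorb. Of 10 microglia markers, 0 were higher and 1 lower in hippocampus (Tmem119, -0.25), and their sums were 110 to 122 (median 114) in hippocampus and 111 to 134 (median 123) in cortex. Of 7 neuron markers 1 was higher and 5 lower (sums 317 to 340 and 363 to 417, in hippocampus and cortex). Of 8 astrocyte markers 2 were higher and 2 lower (114 to 128 and 121 to 131), with Aqp4 at 1.34 and Sox9 at -0.80. Of 9 oligodendrocyte lineage markers 2 were higher and 5 lower (119 to 142 and 128 to 153), of 8 endothelial and mural markers 2 and 1 (73.1 to 96.2 and 73.2 to 87.3), and of 9 blood markers 1 and 2 (36.4 to 42.8 and 37.0 to 46.6). No marker was without peaks in every library. The part of cell makeup in the tissue differences of the chemokine and TNF genes was not tested.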

How the data were processed

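The libraries were made by OMNI-ATAC-seq of frozen tissue pieces (20 to 30 mg) and read as pairs of 50 bp, per the labels' protocols. Per the submitters' processing notes, the tools were Bowtie2 2.4.4, MACS2 2.2.7.1, FastQC 0.11.9 and Trim Galore 0.6.7, on GRCm38 (mm10). A shift of reads for the transposase is not stated in the labels. Each library has its own deposited peak list. The authors deposited 4 values per peak, namely a score, the −log10 of p, the −log10 of q and the fold ratio to local background. They served here to describe, rank or filter peaks of the same library. The authors' 6 tables of differential regions hold 1 number each, taken as 10 times the −log10 of the FDR. Peak lists carry no read depth.

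Distinct intervals with a summit in a gene body or within 20 kb were counted per gene and library and divided by the library's total over the mean total. Values of log2(scaled number + 1) of all 8 groups were fitted together with limma 3.58.1 in R 4.3.3 (eBayes with trend) for 19786 genes with a peak in 2 or more libraries, with Benjamini-Hochberg adjustment at 0.05. A fold change on this scale understates the change of low genes. Consensus windows of 501 bp (563373) counted as open where a peak overlapped at least 50% of the shorter, and those in 2 to 20 libraries (327333) were compared by Fisher's exact test. Both procedures were run on simulated data with strong changes in independent libraries. How well they find smaller differences, or those of paired tissues, was not tested. By the labels both tissues of an animal were sampled, so the animal pairs them. The correlation of an animal's deviations from its group means between tissues was -0.052 to 0.240. The main limma p-values rest on the spread between libraries within groups, each library from a different animal, and have no animal term. Fisher's exact test compares counts of libraries, estimates no spread and leaves out the pairing. Only the replicate block and the sign test use it. Gene positions and promoters are RefSeq's (GRCm38.p6), and no genome sequence was used.

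The 10 genes and all lists were chosen with earlier results of these data known. All 10 are named with values. Also named were up to 3 pathway genes per contrast with the lowest adjusted p, pathway genes with a region of the authors, up to 2 markers per list, of which some are printed, and up to 3 windows per direction and locus. Other windows were named after their values were seen. Alternatives covered scaling, pseudocount, peak strength, distance, filter, measure, overlap, block and leaving out each library or animal. Python 3.11.15, numpy 2.4.6, pandas 2.3.3 and scipy 1.17.1 were used.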

Additional observations from a re-analysis of the deposited data

How the results depend on the processing

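The number of genes among the 10 with a tissue difference was 10, and it was 8 to 10 with no scaling, a pseudocount of 0.5, peaks of −log10 q of 5 or more, 50 kb, no filter, covered bases, summits and the replicate block. It was 6 within 5 kb and 1 with the 50000 strongest peaks per library, of 8 genes then tested, and 9 to 10 on leaving out each animal. The replicate block, with the animal as a term, called 10 of the 10 genes and 8883 of all genes, against 8746 without it. Within 5 kb Tnf turned to 0.0937 and Ccl5 to -0.19. Of 208 alternative values of the 10 tissue differences, 185 kept direction and side of the threshold, 21 lost the call and 2 reversed. Windows differing between tissues numbered 17, with 6 within 5 kb, 0 with the 50000 strongest peaks (9 tested), 15 to 17 on leaving out each animal, and 12 with the replicate block as a sign test over animals. Gains and losses of windows with LPS numbered 18 over the 6 comparisons, in 13 distinct windows, with 8 at −log10 q of 5 or more and 2 with the 50000 strongest. Regions in the authors' deposited table numbered 1, with 0 within 5 kb, 3 within 50 kb and 0 at an FDR of 0.01. The median peak number per locus was 7, with 4 at −log10 q of 5 or more, 1 with the 50000 strongest, 3 within 5 kb and 14.5 within 50 kb. The cause was not tested, apart from the fewer peaks that stricter or narrower settings hold by construction. No LPS or interaction call appeared under any alternative run. Peaks of −log10 q of 5 or more gave 9 of 60 LPS and 7 of 30 interaction values with an unadjusted limma p under 0.05. Of all 19383 genes then tested, 1101 to 1860 per LPS comparison and 819 to 1174 per interaction had such a p. Values of the 10 genes are not independent, since neighbouring genes share peaks and all comparisons within a tissue share the saline libraries. LPS and saline animals share only 1 replicate number, so no paired fit within a tissue was made. Read depth is unknown, so a site listed without a peak may be open below the caller's threshold.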
